A study of Homo sapiens with 8 samples.

Results

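Potassium channels and the related HCN channels set when a neuron fires and how it returns to rest, and their genes were followed here in human dopaminergic neurons grown on a coating that mimics a trophic factor. The gene set holds the 100 protein-coding genes whose symbol begins with KCN, followed by letters and a number, or with HCN, followed by a number, out of 58395 genes listed, of which 19912 are protein-coding. They comprise 96 KCN genes and 4 HCN genes. By family, 83 encode a pore-forming subunit and 17 encode an accessory subunit that has no pore of its own. Membership follows from the gene symbol and biotype.

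The cells were iCell DopaNeurons, a commercial line of dopaminergic neurons made from human induced pluripotent stem cells, so all libraries descend from a single line. In the GDNF group (4 libraries) the neurons sat on coverslips coated with a nanostructure that mimics glial cell line-derived neurotrophic factor (GDNF). The CT group (4 libraries) is not spelled out in the labels, and the scrambled form of the nanostructure, the only comparator that the series names, is taken here as what CT stands for. The treatment protocol is worded alike for all 8 libraries and names the mimetic coating for the CT libraries too, so every GDNF over CT value below rests on that reading. Both groups were collected at day 4, had their medium changed 1 time at 24 hours after seeding, and are annotated with a treatment of 10.73 mM, which is thus shared by both. The design text speaks of 3 biological replicates per condition, and nothing says whether the 4 libraries of a group are separate cultures, so that the p-values below measure the spread between these libraries only.

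As background, a potassium channel lets potassium leave the cell through a narrow selectivity filter and thereby pulls the membrane towards rest. Voltage-gated members (Kv, KCNQ and KCNH) repolarise the action potential, inward rectifiers (Kir, KCNJ genes) and K2P channels (KCNK genes) hold the resting potential, and calcium-activated members shape the pause after a spike. HCN channels open on hyperpolarisation and carry an inward current that helps neurons to fire rhythmically. In rodent midbrain dopaminergic neurons, Kv4.3 channels with their KChIP partners, SK3 channels, GIRK2 channels coupled to dopamine autoreceptors, KATP channels and HCN channels are known for setting the pacemaker and its brakes.

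The stretch that encodes the selectivity filter can be read in the coding sequence of the pore-forming members. The filter is encoded by a run of 3 codons whose letters are GGNTATGGN, GGNTACGGN, GGNTTTGGN or GGNTTCGGN, and these were searched in frame on the coding strand of 1 GENCODE 29 coding sequence per gene. At least 1 match was found in 83 of 83 pore-forming members, in 0 of 17 accessory members, and in 2723 of 19412 other protein-coding genes (14%). A match shows only that these letters are present, and some members hold a further match outside the pore. The windows of the members that the results turn on are printed 5′ to 3′ in coding orientation, with 33 bases before the match, the match in capitals and 12 bases after it. KCNH2 is shown for its high level and the HCN genes for the filter of the pacemaker channels. The KCNJ pair is shown for their different levels per length, and KCNN2 as the member with the smallest p. The first HCN4 match is shown.
KCNH2: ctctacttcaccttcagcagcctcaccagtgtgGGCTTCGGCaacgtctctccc
KCNN2: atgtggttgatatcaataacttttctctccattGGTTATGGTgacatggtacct
KCNJ9: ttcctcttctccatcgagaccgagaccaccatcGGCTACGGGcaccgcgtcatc
KCNJ6: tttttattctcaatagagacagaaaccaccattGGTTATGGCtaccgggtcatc
HCN3: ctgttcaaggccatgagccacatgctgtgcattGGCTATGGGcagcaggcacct
HCN4: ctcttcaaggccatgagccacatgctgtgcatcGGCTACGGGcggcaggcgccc
HCN2: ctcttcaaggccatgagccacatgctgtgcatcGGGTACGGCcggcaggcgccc

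On the GRCh38 build these windows lie within coding exons at chr7:150951497-150951550 for KCNH2 (minus strand), chr5:114463092-114463145 for KCNN2 (plus strand), chr1:160084361-160084414 for KCNJ9 (plus strand) and chr21:37714677-37714730 for KCNJ6 (minus strand). The HCN windows lie at chr1:155284572-155284625 for HCN3 (plus strand), chr15:73329705-73329758 for HCN4 (minus strand) and chr19:607997-608050 for HCN2 (plus strand). The K2P gene KCNK3, whose subunit carries a pair of pore loops, holds 2 matches, GGCTACGGG and GGCTTCGGC, and KCNH2 holds GGCTTCGGC. All 15 K2P members had a match and 11 of them had 2 or more, against 0 of the 8 Kv1 members with more than 1.

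The 8 libraries held between 29532090 and 34559240 counts in the GDNF group and between 28698283 and 31692788 in the CT group. Of 11 markers of midbrain dopaminergic neurons, 9 reached a mean of 5 CPM (TMM-scaled counts relative to the library's total). Their summed level over all 11 was 2254 to 2696 CPM in GDNF libraries and 2214 to 3068 CPM in CT libraries. The dopamine transporter SLC6A3 averaged only 0.663 ± 0.285 CPM in GDNF and 0.430 ± 0.289 CPM in CT (SD, n = 4 each). PITX3, also under 5 CPM, averaged 2.44 ± 0.743 CPM in GDNF and 2.30 ± 0.911 CPM in CT. Summed astrocyte markers were at 3.58 to 5.08 CPM in GDNF and 3.71 to 6.01 CPM in CT. CT replicate 2 differed from all other libraries along the GC content of genes. Over 16078 genes, its deviation from the mean of all other libraries, of both groups, had a Spearman correlation of 0.859 with GC content. This is a description across genes of 1 library. The main counts and sums are also given without CT replicate 2. In bulk RNA, fewer cells of a type and less RNA per cell cannot be told apart.

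Of the 100 genes, 97 had a count in some library, 74 passed the filter on low counts and were tested, and 26 were not tested. KCNA6, KCNK18 and KCNU1 had 0 counts in all 8 libraries. For KCNA6, which encodes a Kv1 subunit, 100% of the annotated exonic bases also belong to GALNT8 on the same strand. How the counting treated such shared bases is not given in the sources used here, so its 0 is uncertain. Levels are likewise uncertain for KCNK4 (61.9% of exonic bases shared with KCNK4-TEX40 on the same strand), KCNMB2 (32.1% with AC117457.1), KCNMB3 (37.9% opposite PIK3CA), KCNH1 (36.9% opposite AC096636.1), KCNC2 (35.5% opposite AC073525.1), HCN3 (13.5% opposite PKLR), and for the near-identical copies KCNJ12 and KCNJ18, and KCNE1 and KCNE1B.

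Levels can be compared between genes only per length, so each gene's counts were divided by its annotated exonic length and scaled to TPM, the length-corrected counterpart of CPM. On this scale KCNH2, the hERG channel gene, was among the highest of the set. It had 125, 122, 142 and 147 TPM in GDNF libraries, against 120, 178, 138 and 121 TPM in CT libraries. It ranked 1331 of 19902 protein-coding genes by mean TPM. KCNH2 was above KCNF1 in 8 of 8 libraries.

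**Figure D1:**
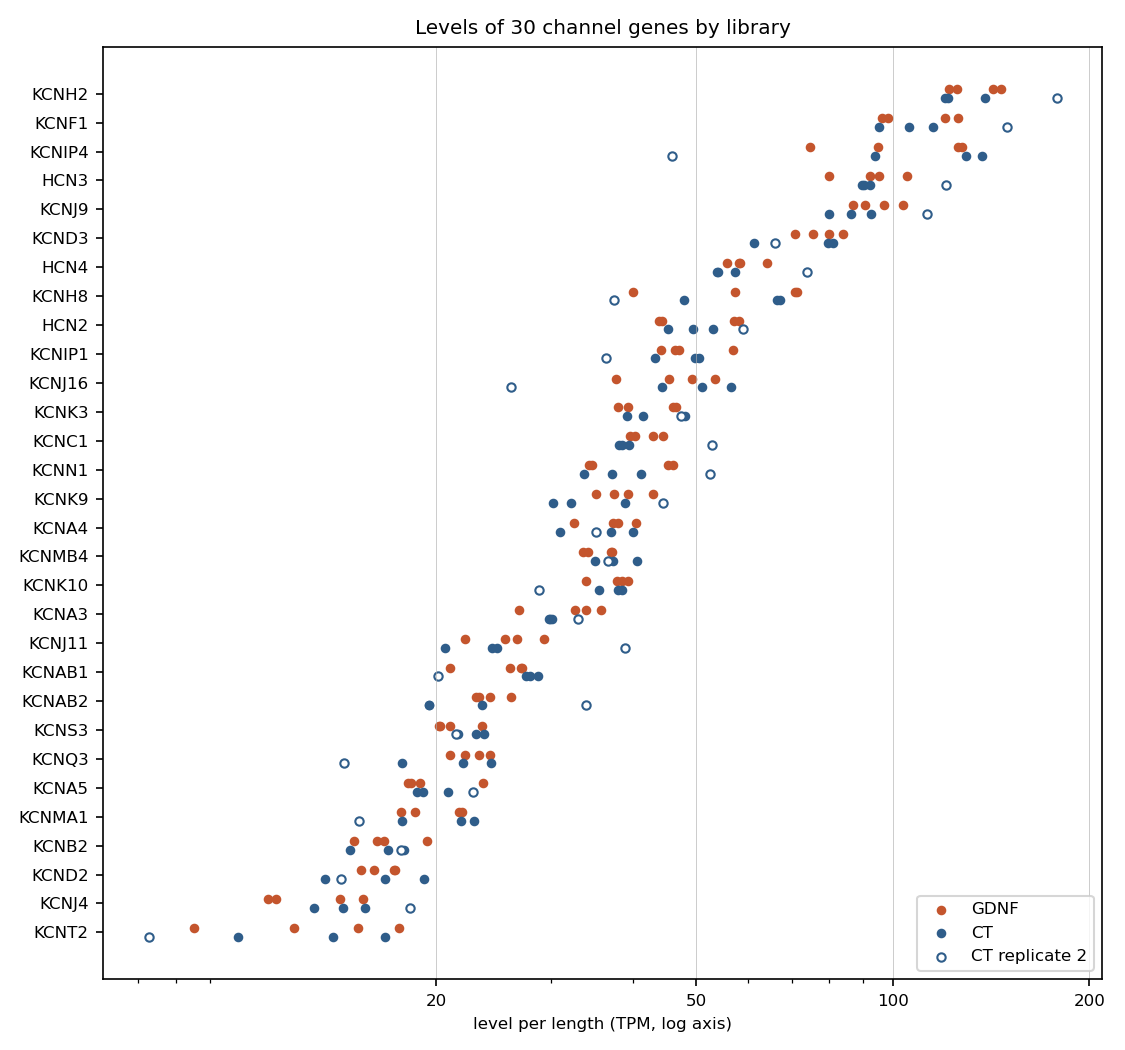
Level per length (TPM, log axis) of 30 channel genes with a high mean; each point is a library, with GDNF above CT in each row and CT replicate 2 drawn open. The open points leave their row on either side, right for KCNH2 and KCNC1 and left for KCNIP4 and KCNJ16.

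Below this gene the order was less settled. KCNF1, a silent Kv subunit that forms no channel alone and modifies Kv2 channels, averaged 110 ± 15 TPM in GDNF and 117 ± 23.5 TPM in CT (SD, n = 4 each, as for all means that follow). KCNIP4, a KChIP that binds Kv4 channels, averaged 106 ± 25.6 TPM in GDNF and 102 ± 41.6 TPM in CT, and KCNF1 was above it in only 4 of 8 libraries. HCN3 (93.0 ± 10.4 TPM in GDNF, 98.3 ± 14.9 TPM in CT) was above KCNJ9 (94.6 ± 7.30 TPM in GDNF, 93.0 ± 14.3 TPM in CT) in 6 of 8 libraries, so neither pair was separated beyond its spread. KCNJ9 was above KCND3 (77.5 ± 5.59 TPM in GDNF, 72.1 ± 9.83 TPM in CT) in 8 of 8. From HCN4 downwards to KCNK10, a gene was above the next lower one reported here in 3 to 5 of 8 libraries.

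Summed over members, the channel transcripts were spread over many families. KCNH genes made up 11.9% of the summed TPM of all 100 genes on average over libraries, KCNQ 11.6%, HCN 11.4%, Kir 11.3% and KChIP 9.13%, while the KCNE genes, small single-pass beta subunits, made up 0.323%. The total over all members was 1795 to 1837 TPM in GDNF libraries and 1692 to 1930 TPM in CT libraries, with CT replicate 2 the highest. The KCNQ sum was 196 to 227 TPM in GDNF and 181 to 272 TPM in CT, and the HCN sum was 192 to 228 TPM in GDNF and 190 to 254 TPM in CT. The GDNF range lay inside the CT range for both sums. Without CT replicate 2, the CT range was 181 to 201 TPM for KCNQ, 190 to 200 TPM for HCN and 1692 to 1806 TPM for the total, each overlapping the GDNF range.

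**Figure D2:**
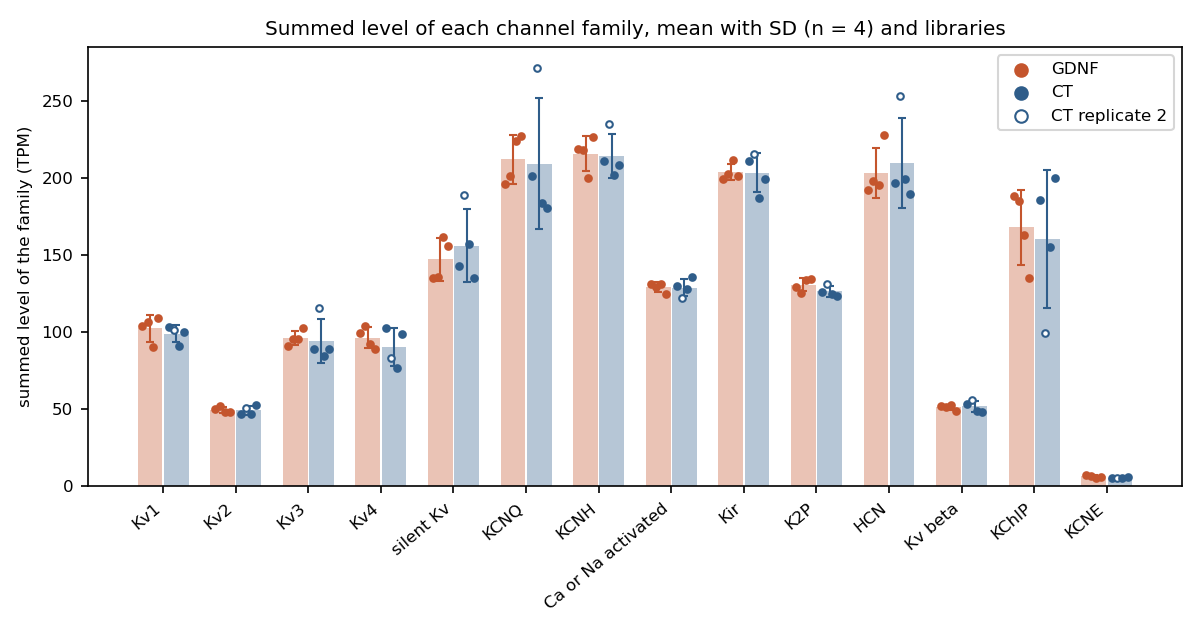
Summed level (TPM) of each channel family in GDNF (left bar) and CT (right bar): bars are means, error bars SD (n = 4), points single libraries, with CT replicate 2 open. The GDNF and CT error bars overlap in each family, and the open point is the highest in KCNQ (272 TPM) and HCN (254 TPM) and the lowest in KChIP (99.4 TPM).

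The 3 HCN genes described here kept a fixed order. HCN4, the slow subunit also known from the sinus node, had 55.7, 58.2, 58.3 and 64.1 TPM in GDNF, against 57.3, 73.9, 54.0 and 53.9 TPM in CT. HCN2, a subunit widespread in brain, averaged 50.9 ± 7.88 TPM in GDNF and 51.7 ± 5.78 TPM in CT. HCN3 averaged 93.0 ± 10.4 TPM in GDNF and 98.3 ± 14.9 TPM in CT. The order HCN3 over HCN4 over HCN2 held in 8 of 8 libraries. HCN3 was 1.37 to 1.66 times HCN4 in GDNF and 1.57 to 1.71 times HCN4 in CT.

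In the Kv1, Kv3 and Kv4 families the same gene led in all 8 libraries. KCND3, which encodes Kv4.3 of the A-type current, held 80.5 ± 0.882% of the Kv4 sum in GDNF and 79.7 ± 0.649% in CT, with KCND2 (Kv4.2) at 17.1% in GDNF and 17.6% in CT. KCNQ3, a subunit of the M current that restrains repetitive firing, had 24.2, 23.3, 22.1 and 21.0 TPM in GDNF libraries, against 24.3, 14.5, 17.7 and 21.9 TPM in CT libraries, so that the groups overlapped. In Kv1, KCNA4 (37.1 ± 3.37 TPM in GDNF, 35.8 ± 3.78 TPM in CT) was followed by KCNA3, KCNA5 and KCNA2, the last a main axonal Kv1 subunit. KCNC1, a fast Kv3 gene, held 43.5 ± 1.51% in GDNF and 44.7 ± 1.06% in CT.

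Inward rectifiers were led by a G protein-coupled subunit. KCNJ9 (GIRK3) was 6.27 to 10.4 times KCNJ6 (GIRK2) in GDNF and 5.45 to 13.6 times in CT. KCNJ6 itself had 13.9, 14.2, 9.92 and 11.1 TPM in GDNF, against 14.4, 8.31, 8.86 and 14.7 TPM in CT. KCNJ11, the pore of the KATP channel, averaged 25.9 ± 2.97 TPM in GDNF and 27.2 ± 8.07 TPM in CT. It was at least 40.7 times KCNJ8, the other KATP pore gene, in each library. KCNJ8 had only 4 to 11 counts per library and was not tested, so the size of this ratio is uncertain. KCNJ16, a Kir5 gene best known from kidney and glia, averaged 46.4 ± 6.73 TPM in GDNF and 44.5 ± 13.3 TPM in CT. Its usual partner KCNJ10, a Kir4 gene typical of glia, was near the floor: KCNJ16 was 158 to 423 times KCNJ10 in GDNF libraries, and KCNJ10 had only 1 to 3 counts in each CT library.

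In 3 families the leading gene changed with the gene length used. KCNN1 (SK1) led the calcium or sodium activated genes with 31.6% of their TPM, KCNK3 (TASK1, an acid-sensitive leak channel) led K2P with 33.6%, and KCNAB1 led the Kv beta subunits with 50.04%. With the length of the longest transcript in place of all annotated exons, KCNMA1, KCNK9 and KCNAB2 led instead. KCNMA1, the BK channel pore, has 35644 annotated exonic bases against 12071 in its longest transcript. By counts alone, not corrected for length, it had 150 ± 11.2 CPM in GDNF and 149 ± 20.7 CPM in CT. Per annotated exonic length it was above the BK beta subunit gene KCNMB4 in 0 of 8 libraries. With the longest transcript its mean was 43.8 TPM, against 28.2 TPM for KCNMB4. Of the beta subunits that tune BK channels, KCNMB4, the neuronal one, averaged 36.5 ± 2.77 CPM in GDNF and 39.4 ± 3.36 CPM in CT, and KCNMB1, the smooth muscle one, 0.619 ± 0.179 CPM in GDNF and 0.578 ± 0.192 CPM in CT.

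The comparison the design implies is whether the mimetic coating altered these transcripts. No channel gene passed the test. With edgeR's quasi-likelihood test (two-sided, Benjamini-Hochberg adjustment over all 19999 genes tested, threshold 0.05), 0 of 74 members were called higher in GDNF (background 0% of all genes) and 0 were called lower (background 0%). At an unadjusted p under 0.05, 176 genes passed, 60 higher (0.3% of those tested) and 116 lower (0.58%). A calibrated test gives about 1 in 20 genes by chance at this threshold. The p-values and the intervals below are thus likely conservative, and a missing call does not show that a gene is unchanged. Among members, 0 of 74 were higher (background 0.3%) and 1, KCNN2, was lower (1.35%, background 0.58%). DESeq2 and limma-voom also called 0 genes after adjustment, with 151 and 837 of 19999 genes at an unadjusted p under 0.05. Among the 74 members these were 1 by DESeq2 (KCNN2) and 4 by limma-voom (KCNE5, KCNJ2, KCNJ4 and KCNN2).

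The log2 fold changes, given as GDNF over CT throughout, lay on both sides of 0. They were above 0 for 38 members and below 0 for 36, with a median of 0.0067, beside 9521 above and 10478 below and a median of -0.0098 over all genes tested. This split moved with single libraries, to 51 above and 24 below without CT replicate 2 and to 26 above and 49 below without CT replicate 3. Upper-quartile scaling gave 34 above and 40 below. Pore-forming members had 29 above and 30 below with a median of -0.014, and accessory members 9 above and 6 below with a median of 0.060. Without CT replicate 2 the pore-forming members had 42 above and 18 below with a median of 0.057, and the accessory members 9 above and 6 below with a median of 0.025.

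The 95% confidence intervals, taken gene by gene and not adjusted over genes, give the range of changes compatible with each member's counts. Of the 44 members with a mean of at least 5 CPM, 39 (88.6%) had an interval within 1.5-fold either way and 44 within 2-fold, beside 79.3% and 99.4% of the 11815 genes of that level. The 5 wider ones were KCNT2, KCNMB2, KCNJ11, KCNJ4 and KCNIP4. Without CT replicate 2, 43 of the 44 (97.7%) had an interval within 1.5-fold, beside 96.9% of the genes of that level. KCNH2 had a log2 fold change of -0.10 with an interval of -0.48 to 0.28, KCND3 one of 0.072 (-0.19 to 0.33), KCNJ6 one of 0.059 (-0.35 to 0.47) and KCNJ11 one of -0.12 (-0.61 to 0.37). KCNN3, the SK3 gene, had 0.14 (-0.20 to 0.49), and KCNIP3, the KChIP also known as the repressor DREAM, 0.060 (-0.39 to 0.51). For the 30 tested members under 5 CPM the depth gave wider intervals, and smaller differences were not detectable.

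**Figure D3:**
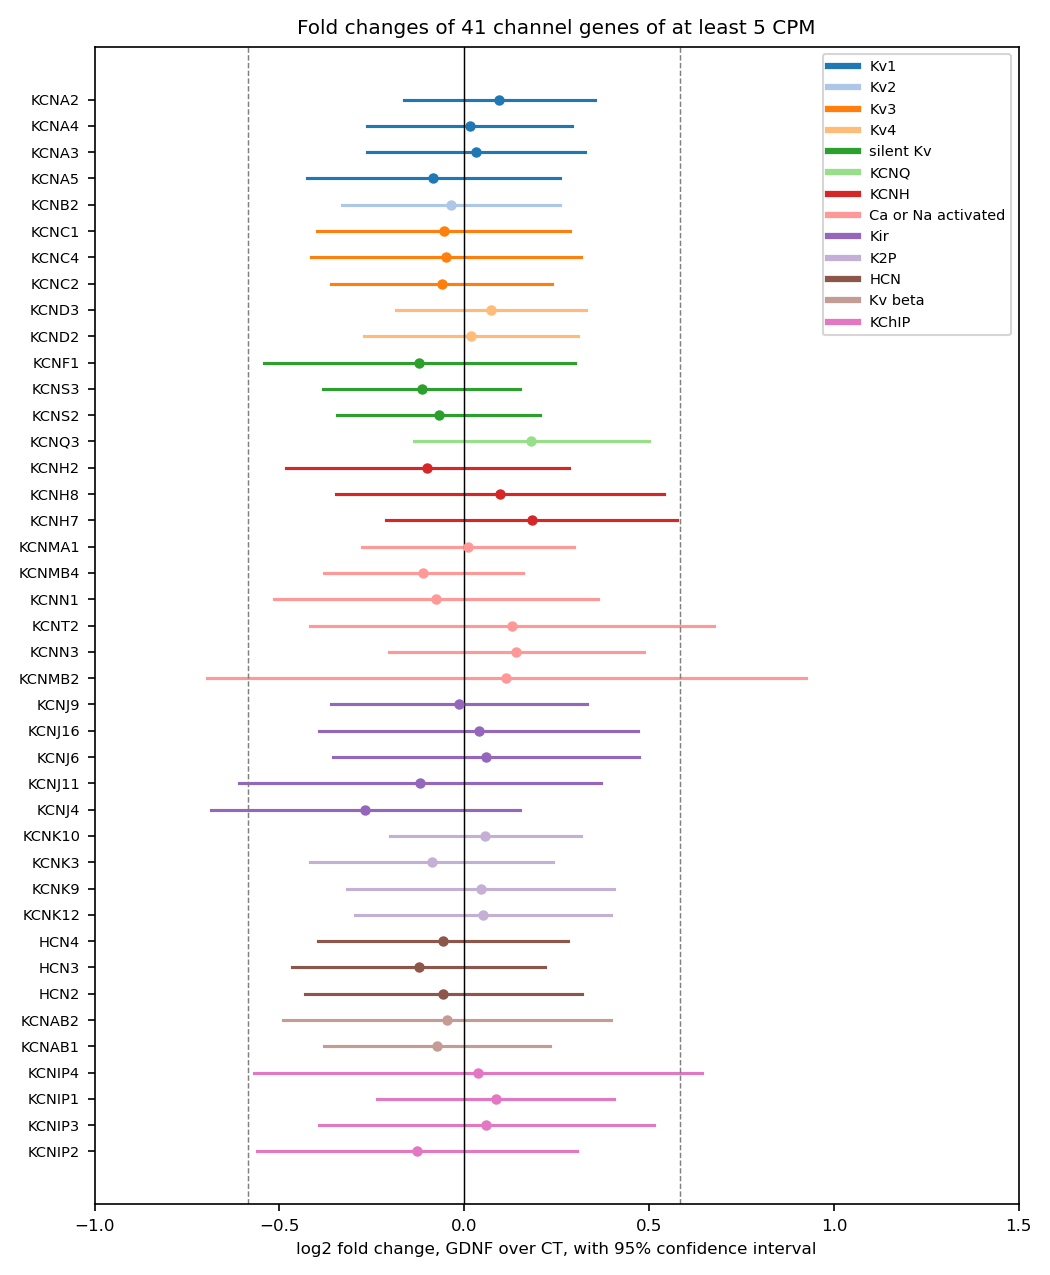
Log2 fold change of GDNF over CT with its 95% confidence interval for 41 channel genes of at least 5 CPM, coloured by family; dashed lines mark 1.5-fold either way. All intervals cross 0, and those of KCNMB2, KCNT2, KCNJ11, KCNJ4 and KCNIP4 reach past a dashed line.

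Taken by role, counts of members above and below 0 were 4 and 1 in Kv1, 0 and 2 in Kv2, 1 and 3 in Kv3, 2 and 1 in Kv4, 4 and 1 in KCNQ, and 6 and 2 in KCNH. They were 6 and 4 among the calcium or sodium activated genes, 3 and 7 in Kir, 5 and 1 in K2P, 1 and 3 in HCN, 1 and 2 in Kv beta, 3 and 1 in KChIP and 2 and 2 in KCNE. The silent Kv subunits, which join Kv2 channels, had 0 above and 6 below, with a median of -0.20. KCNG3 had the lowest value (-0.83, interval -2.01 to 0.35) at 0.248 ± 0.178 CPM in GDNF and 0.452 ± 0.207 CPM in CT, and KCNF1 had -0.12 (-0.54 to 0.30). These splits moved with CT replicate 2. Without it Kv2 had 2 above and 0 below, Kv3 had 4 and 0 (median 0.12, against -0.053 with it), HCN 4 and 0, and Kv beta 2 and 1, while the calcium or sodium activated genes had 4 above and 6 below. Kv1 then had 5 and 0, Kv4 3 and 0, KCNQ 5 and 0, KCNH 7 and 1, Kir 4 and 6, K2P 5 and 2, KChIP 3 and 1 and KCNE 2 and 2, and the silent subunits had 1 above and 5 below with a median of -0.077. None of these members passed the test.

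KCNN2, the SK2 calcium-activated channel gene, was the member with the smallest p. It had 0.827, 0.628, 0.839 and 0.742 CPM in GDNF libraries, against 1.14, 1.26, 1.42 and 0.976 CPM in CT libraries. Every GDNF value was below every CT value, on 22 to 29 counts in GDNF and 31 to 41 counts in CT. It was the only tested member without overlap in the lower direction (1.35% of 74, background 0.625%), and 0 of 74 were without overlap in the higher direction (background 0.305%). The log2 fold change was -0.66 (interval -1.17 to -0.14), with an unadjusted p of 0.018 and an adjusted p of 0.9999 by edgeR. Without GDNF replicate 2 the unadjusted p was 0.054.

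Other low members were among those with the smallest p. KCNE5, a KCNE subunit, had 0.570, 0.257, 0.369 and 0.709 CPM in GDNF, against 0.190, 0.498, 0.242 and 0.189 CPM in CT (log2 fold change 0.76, interval -0.24 to 1.76). The groups overlapped. KCNJ2, a classical strong inward rectifier, had 3.31, 3.14, 3.05 and 2.90 CPM in GDNF, against 4.17, 2.53, 3.73 and 3.93 CPM in CT (-0.21, interval -0.62 to 0.19).

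KCNJ4, KCNQ3, KCNT1, KCNK1 and KCNJ5 were also among the 10 smallest p. KCNJ4, another strong inward rectifier, averaged 5.70 ± 1.15 CPM in GDNF and 6.85 ± 1.25 CPM in CT, KCNQ3 60.3 ± 2.49 CPM in GDNF and 53.2 ± 9.70 CPM in CT, and KCNT1, a sodium-activated channel gene, 3.29 ± 0.716 CPM in GDNF and 3.97 ± 1.26 CPM in CT. KCNK1, a K2P gene, averaged 1.09 ± 0.298 CPM in GDNF and 0.850 ± 0.303 CPM in CT. KCNJ5, a GIRK gene, averaged 0.467 ± 0.0551 CPM in GDNF and 0.600 ± 0.186 CPM in CT. The groups overlapped for each of these genes.

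Further named members did not pass the test either. KCNA2 averaged 47.1 ± 2.63 CPM in GDNF and 44.1 ± 3.66 CPM in CT, and KCND2 19.3 ± 0.389 CPM in GDNF and 19.03 ± 2.46 CPM in CT. KCNK9, the acid-sensitive TASK3 gene, averaged 55.3 ± 5.93 CPM in GDNF and 53.7 ± 11.7 CPM in CT, and KCNK2, the mechanosensitive TREK1 gene, 2.71 ± 0.330 CPM in GDNF and 2.56 ± 0.614 CPM in CT. KCNH8, an ELK channel gene, averaged 77.1 ± 16.5 CPM in GDNF and 72.1 ± 16.3 CPM in CT, and KCNIP1 34.5 ± 5.04 CPM in GDNF and 32.5 ± 4.00 CPM in CT.

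Among the 26 members not tested, KCNJ10 was the only one whose groups did not overlap. That is 1 of the 23 with a count (4.35%), beside 0.505% higher and 0.828% lower in GDNF among the 20415 untested genes with a count. It had 0.171, 0.228, 0.235 and 0.337 CPM in GDNF, against 0.063, 0.033, 0.069 and 0.094 CPM in CT, from 6 to 10 counts in GDNF and 1 to 3 counts in CT. A level of 3 counts corresponds to 0.0855 to 0.104 CPM in these libraries, so the CT values are at the floor. Its summed counts were 31 in GDNF and 8 in CT, a depth-scaled ratio of 3.66 with an exact 95% interval of 1.65 to 9.22 that covers counting error only. Fitted without a filter on low counts, which for so few counts depends on the prior count, its log2 fold change was 1.84 (interval 0.35 to 3.33) with an unadjusted p of 0.017 and an adjusted p of 0.9999 by edgeR. KCNJ10 is a glial gene, and the summed astrocyte markers overlapped between the groups, with values given above; their part in this difference was not tested.

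**Figure D4:**
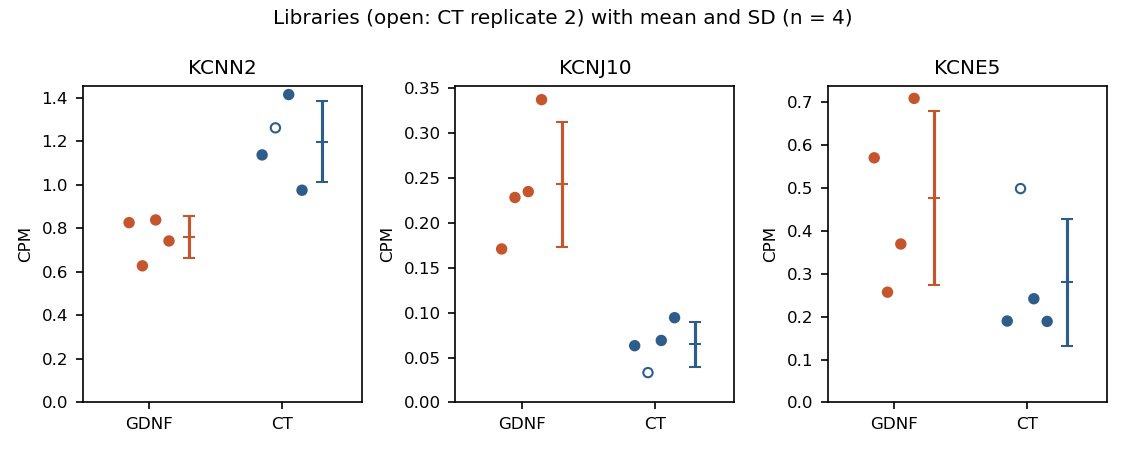
CPM of KCNN2, KCNJ10 and KCNE5 in each GDNF (left) and CT (right) library, with mean and SD (n = 4); CT replicate 2 is open. The groups do not overlap for KCNN2 (0.628 to 0.839 CPM in GDNF, 0.976 to 1.42 CPM in CT) or KCNJ10, and overlap for KCNE5.

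Genes that work with the channels were read from a list of 22, of which 18 were tested. None passed the test in either direction; 14 fold changes were above 0 and 4 below, with a median of 0.066. The split was 9 and 9 with limma-voom, and 10 and 9 over 19 genes without CT replicate 2. DPP6, the Kv4 partner with the highest level, had 125 ± 8.91 CPM in GDNF and 126 ± 14.7 CPM in CT. ABCC8, the sulfonylurea receptor that completes the KATP channel with KCNJ11, had 8.25 ± 0.672 CPM in GDNF and 9.39 ± 1.955 CPM in CT, whereas ABCC9, the alternative receptor, was at 0.298 ± 0.198 CPM in GDNF and 0.147 ± 0.041 CPM in CT. NALCN, the sodium leak channel that supports pacemaking, had the smallest partner p (0.25, log2 fold change 0.17, interval -0.14 to 0.48). ANK3, the ankyrin that anchors KCNQ channels at the axon initial segment, averaged 860 ± 115 CPM in GDNF and 815 ± 163 CPM in CT. VAPB, an endoplasmic reticulum protein that binds Kv2 channels, averaged 161 ± 11.7 CPM in GDNF and 153 ± 18.1 CPM in CT. LRRC55, a BK gamma subunit, averaged 60.3 ± 3.22 CPM in GDNF and 58.2 ± 2.99 CPM in CT. UNC79, a subunit of the NALCN complex, averaged 76.6 ± 5.31 CPM in GDNF and 75.5 ± 2.44 CPM in CT. CNTNAP2, which places Kv1 channels beside the node of Ranvier, averaged 181 ± 11.4 CPM in GDNF and 169 ± 17.9 CPM in CT. KCNRG, a regulator of Kv1 assembly, was not tested, at 0.327 ± 0.147 CPM in GDNF and 0.336 ± 0.133 CPM in CT. PEX5L, the HCN trafficking protein TRIP8b, averaged 13.5 ± 2.41 CPM in GDNF and 13.6 ± 2.33 CPM in CT, and REST, a repressor of neuronal genes, 3.72 ± 0.736 CPM in GDNF and 3.27 ± 0.913 CPM in CT.

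The largest differences among libraries of the same group followed the base composition of the genes. The middle 90 bases of the coding sequence of 2 GC-rich and 2 GC-poor members are printed 5′ to 3′, with G and C in capitals, to show how far the members differ. HCN2 has 62.2% G and C in this stretch, KCNJ11 61.1%, KCNIP4 38.9% and KCNT2, a sodium-activated channel gene, 35.6%. On GRCh38 they lie at chr19:608034-608123 for HCN2 (plus strand), chr11:17387462-17387551 for KCNJ11 (minus strand), chr1:196340377-196340466 for KCNT2 (minus strand), and across a splice junction within chr4:20734714-20749729 for KCNIP4 (minus strand).
KCNJ11: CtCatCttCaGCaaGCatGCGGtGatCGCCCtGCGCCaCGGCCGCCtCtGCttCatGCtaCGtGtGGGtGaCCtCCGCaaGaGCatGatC
HCN2: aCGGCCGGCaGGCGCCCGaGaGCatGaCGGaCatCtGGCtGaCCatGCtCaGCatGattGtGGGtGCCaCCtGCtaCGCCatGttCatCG
KCNIP4: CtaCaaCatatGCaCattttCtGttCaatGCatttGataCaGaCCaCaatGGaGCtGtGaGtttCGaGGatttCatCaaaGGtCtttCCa
KCNT2: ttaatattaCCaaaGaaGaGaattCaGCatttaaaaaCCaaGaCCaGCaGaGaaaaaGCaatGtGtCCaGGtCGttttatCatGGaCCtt

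For each of the 44 members of at least 5 CPM, a library's deviation was taken as its log2 CPM minus the mean of the other 3 libraries of its group. GC content was that of each gene's longest transcript, with a median of 51.3%. In CT replicate 2, 21 of the 22 members above that median lay above the rest of CT, with a median deviation of 0.53. Of the 22 at or below it, 15 lay below the rest of CT, with a median deviation of -0.25. The highest deviation of the 44 was that of KCNJ11 (0.87, 61.2% GC) and the lowest that of KCNMB2 (-1.98, 37.5% GC). HCN4 had 123 CPM in CT replicate 2, against 80.5 to 86.7 CPM in CT replicates 1, 3 and 4, while KCNIP4 had 45.0 CPM against 87.2 to 120 CPM. Over the 44 members the Spearman correlation of deviation with GC content was 0.868 in CT replicate 2.

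The other libraries showed the same axis to a lesser degree and in either direction. The correlation was -0.840, -0.726, 0.469 and 0.732 in GDNF replicates 1 to 4, and -0.781, -0.021 and -0.814 in CT replicates 1, 3 and 4. These values are descriptions over 44 genes that share a library, and the deviations of the libraries of a group are tied to each other by construction. Both groups hold libraries on either side of 0.

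**Figure D5:**
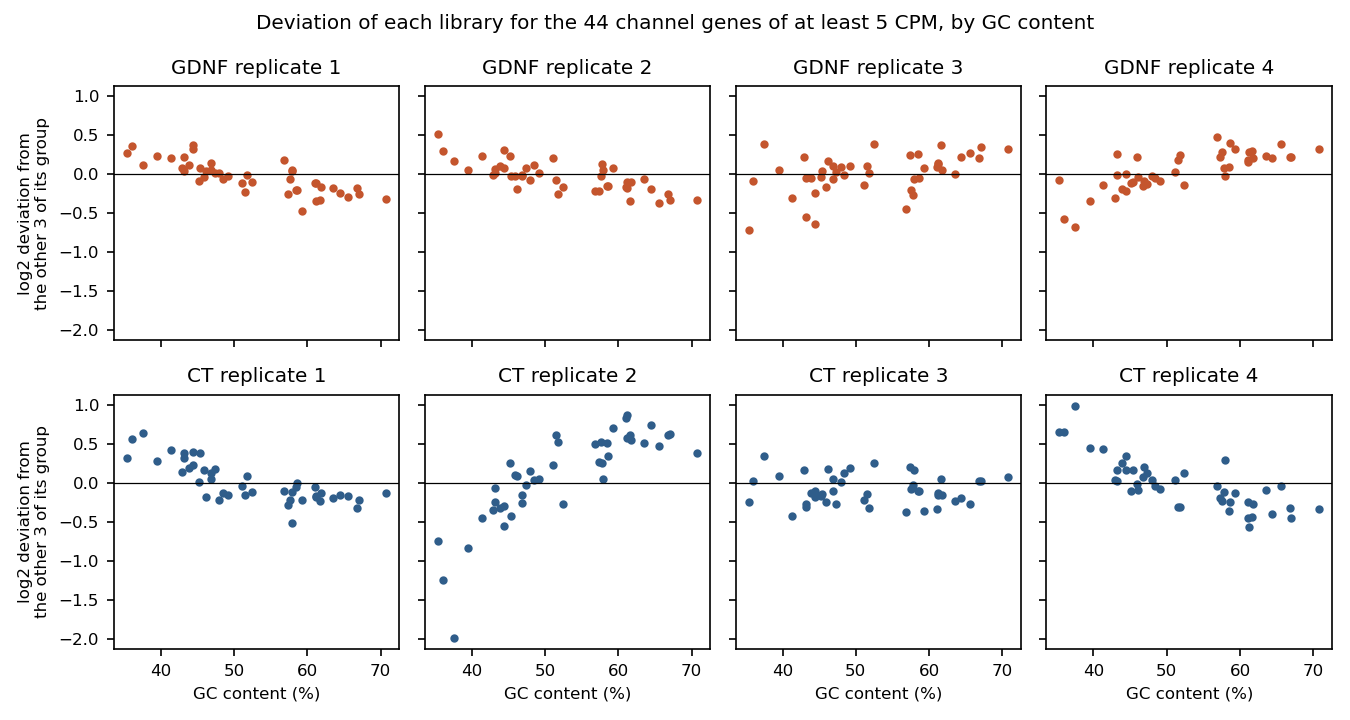
Log2 deviation of each library from the other 3 of its group (vertical axis) against GC content of the longest transcript in percent (horizontal axis). Shown are the 44 channel genes of at least 5 CPM. GDNF libraries are in the top row and CT libraries in the bottom row. The points climb most steeply in CT replicate 2, from -1.98 for KCNMB2 to 0.87 for KCNJ11, and descend in replicates 1 and 2 of GDNF and replicates 1 and 4 of CT.

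The spread of the members followed this library. The median SD of log2 CPM over the 44 members was 0.160 in GDNF and 0.262 in CT, and it was 0.138 in CT without replicate 2. The SD was larger in CT than in GDNF for 34 of 44 members, and for 14 of 44 without CT replicate 2. With offsets that follow each library's trend over GC content and length, the median SD was 0.107 in GDNF and 0.130 in CT. With them, 44 of the 44 intervals lay within 1.5-fold. The offsets were fitted to these same libraries, so a smaller spread follows in part from the fit. The share over all genes of that level was not taken with the offsets, so whether this count is particular to channel genes is not known. With the offsets, HCN4 had 91.4, 93.8, 91.6 and 90.9 CPM in GDNF libraries, against 94.5, 84.8, 89.6 and 93.0 CPM in CT libraries. KCNIP4 had 93.4, 90.03, 86.2 and 81.7 CPM in GDNF, against 92.7, 89.8, 88.5 and 91.9 CPM in CT.

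With these offsets 0 genes passed the adjusted threshold, and an unadjusted p under 0.05 was reached by 3 of 74 members (4.05%), beside 351 of 19999 genes (1.76%). They were KCNN2 (log2 fold change -0.59), KCNE5 (0.88) and KCNJ2 (-0.30). Without CT replicate 2, the same 3 of 75 members (4%) had an unadjusted p under 0.05, with -0.62 for KCNN2, 1.19 for KCNE5 and -0.34 for KCNJ2, beside 391 of 20354 genes (1.92%). With the offsets and without CT replicate 2 they were KCNN2, KCNE5 and KCNK1, again 3 of 75, beside 435 of 20354 genes (2.14%). The adjusted p of each was 0.996 or more.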

How the data were processed

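Messenger RNA was counted in 8 polyA libraries, 4 GDNF and 4 CT, grouped by their titles. The authors deposited unnormalized read counts, 1 whole number per Ensembl gene and library. The submitters' processing notes name the tools FastQC, cutadapt, STAR, HTSeq and DESeq2, and the build GRCh38. Tool versions, the annotation release, strandedness and the handling of reads with several mapping places are not given there or in the labels. Levels of genes with overlapping exons or near-identical copies are therefore uncertain.

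Counts were tested with edgeR 4.0.16 in R 4.3.3 (TMM, filterByExpr with a minimum count of 10 and a minimum total of 15, robust quasi-likelihood fit, group as the only term, two-sided, Benjamini-Hochberg over all genes tested). The same steps were tested on simulated data that held no trend with GC content and no deviating library. That test does not show how the steps behave with such libraries. Per-length levels used exonic lengths of GENCODE 29, in which 58275 of 58395 genes (99.8%) were found. Coding sequences came from the same release. Depth was 28698283 to 34559240 counts per library; floors and count ranges cover counting error only.

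Alternatives were DESeq2 1.42.0, limma-voom (limma 3.58.1) with quality weights, other scalings and filters, GC and length offsets (a spline trend per library), a replicate block, and leaving out each library. The members, the gene lists and the families were chosen with earlier results of these data known. Named members were the highest of each family, the 15 highest of all, the 10 smallest p and a fixed list. Named partners were the highest per role and the smallest p; others are given as counts. Results of some single members are not reported here; counts, medians and family sums cover all members. No family or list was tested as a set.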

Additional observations from a re-analysis of the deposited data

Results flagged for a closer look

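For the 36 named members, the lowest and the highest library of each group of 4 were compared with the nearest other library. Of 72 such groups of values, 6 held a library whose gap exceeded Dixon's 95% critical value for 4 values, where chance flags about 1 in 20 groups, which is 4 here. In 5 of the 6 the library was CT replicate 2. It lay above the other CT libraries for KCNC1 (175 CPM), HCN4 (123 CPM), HCN3 (114 CPM), KCNT1 (5.85 CPM) and KCNE5 (0.498 CPM). The GC content of their longest transcripts was 57.6% to 61.8%, above the median of the 44 members of at least 5 CPM (51.3%). GDNF replicate 3 lay above the other GDNF libraries for KCNIP1 (42.0 CPM), which encodes a KChIP.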

How the results depend on the processing

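Under all 17 other settings, 0 genes, 0 members and 0 partner genes passed the adjusted threshold, and the median over the members ranged from -0.038 to 0.051 when a library was left out. Total-count CPM in place of TMM-scaled CPM moved the log2 ratio of the group means of each family's summed CPM by 0.0031 to 0.012, less than the SD of the log2 sums in either group. Same-numbered libraries had deviations that correlated at 0.707, -0.637, 0.32 and -0.822. These deviations also carry each library's trend with GC content, so they cannot tell whether equal numbers mark a shared culture or day. With the replicate block, 0 genes passed the adjusted threshold and 112 had an unadjusted p under 0.05 by edgeR. Of the members, 38 then lay above and 36 below 0. Of the 35 named members tested, 22 changed the sign of their fold change under some setting; the largest main value among them was 0.35 in size, and none had an adjusted p under 0.05. The cause was not tested. With GC and length offsets the log2 fold change was 0.023 for HCN4, -0.017 for KCNA4, 0.027 for KCNC1, -0.067 for KCND2, -0.046 for KCNIP4, 0.0066 for KCNJ11, -0.061 for KCNJ16, -0.031 for KCNJ6, 0.085 for KCNJ9, -0.0039 for KCNK2, -0.053 for KCNMA1 and 0.024 for KCNN1. With limma-voom and quality weights the log2 fold change was 0.0093 for HCN3, 0.026 for HCN4, -0.020 for KCNA4, 0.035 for KCNC1, -0.036 for KCND2, 0.015 for KCNH2, -0.00050 for KCNIP1, -0.095 for KCNIP4, 0.044 for KCNJ11, -0.076 for KCNJ16, 0.0062 for KCNJ5, -0.028 for KCNJ6, 0.044 for KCNJ9 and -0.046 for KCNMA1. With upper-quartile factors the log2 fold change was -0.0056 for KCNA4, -0.00058 for KCND2 and -0.0048 for KCNMA1. With the offsets and without CT replicate 2, a setting added after the data were seen, the log2 fold change was -0.045 for KCNIP4, 0.086 for KCNJ11, -0.039 for KCNJ16, 0.076 for KCNJ9, -0.051 for KCNMA1 and 0.026 for KCNN1. Leaving out each library in turn, it ranged from -0.14 to 0.052 for HCN2, -0.20 to 0.034 for HCN3, -0.12 to 0.10 for HCN4, -0.044 to 0.056 for KCNA4, -0.12 to 0.11 for KCNC1, -0.047 to 0.10 for KCND2, -0.16 to 0.081 for KCNE4, -0.22 to 0.066 for KCNF1, -0.18 to 0.083 for KCNH2, -0.017 to 0.23 for KCNH8, -0.024 to 0.15 for KCNIP1, -0.029 to 0.28 for KCNIP3, -0.18 to 0.19 for KCNIP4, -0.25 to 0.15 for KCNJ11, -0.12 to 0.15 for KCNJ16, -0.042 to 0.17 for KCNJ6, -0.099 to 0.14 for KCNJ9, -0.028 to 0.19 for KCNK2, -0.033 to 0.20 for KCNK9, -0.058 to 0.077 for KCNMA1 and -0.18 to 0.11 for KCNN1. The 1 CPM filter left 62 members and removed KCNN2, KCNE5, KCNG3 and others. KCNN2 lay below 0 under all settings that kept it. Shares within families moved with the length used, as given for 3 families. Members under 5 CPM rest on few counts, and depth limits what can be said of them.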
